A study of Mus musculus with 6 samples.

Results

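Fatty acid oxidation breaks fatty acids down to acetyl-CoA, and 34 genes of it were named by symbol as the members described here: genes for acyl-CoA activation, the carnitine shuttle and the mitochondrial and peroxisomal cycles. A gene was a member when its symbol in the raw count table equalled a name on that list, with no measured value used. Of the 34 names, 33 matched a row among 18543 genes, and all 33 passed the filter on low counts, which 14052 genes passed in all. Ppara was not analysed here. The cells were group 2 innate lymphoid cells (ILC2s), lymphocytes without rearranged antigen receptors that release type 2 cytokines in response to alarmins such as IL-33. Sorting was from lung, and the C57BL/6 mice, 8 weeks old, had been given intranasal rm IL-33 (0.5 µg) over 3 consecutive days before isolation on day 4. The 3 libraries labelled KO came from Atg5-/- mice and the 3 labelled WT from wild-type mice. Both groups had the same IL-33 treatment, and there was no untreated group. The labels do not state which exons of Atg5 or which cell types carried the deletion, whether a library held 1 mouse or several, or the sort gates.

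A fatty acid is first joined to coenzyme A by an acyl-CoA synthetase. Its long-chain acyl group is then passed to carnitine by CPT1 at the outer mitochondrial membrane, moved across the inner membrane by a carrier and handed back to coenzyme A by CPT2. Each round of the mitochondrial cycle is a dehydrogenation, a hydration, a second dehydrogenation and a thiolytic cleavage. The electrons of the first step reach the respiratory chain through electron transfer flavoprotein. Peroxisomes run a parallel cycle for very long and branched chains. Autophagy, which needs ATG5, can release fatty acids from lipid stores, and the series compared ILC2s with and without Atg5 to ask how the loss of autophagy affects their transcriptome.

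Levels are given as CPM, which are estimated counts scaled to a common library size after TMM normalization. Library totals lay between 28827545 and 33662979 estimated counts, at which 3 counts correspond to 0.0891 to 0.104 CPM. The targeted gene, Atg5 (chromosome 10, 44268358 to 44364291, forward strand, mm10), had 23.0, 25.6 and 52.2 CPM under the labels KO 1 to KO 3, against 66.3, 71.8 and 21.8 CPM under the labels WT 1 to WT 3. The library labelled KO 3 lay below WT 1 and WT 2 but nearer to them than to KO 1 and KO 2. The library labelled WT 3 had less Atg5 RNA than any library labelled KO. Over all 14052 genes the log2 CPM of WT 3 had a Pearson r of 0.991 to that of KO 1 and of 0.946 to that of WT 1, which describes single pairs of libraries across genes. Beside the fit of all 6 libraries, results are therefore given from a fit without the library labelled WT 3, called the 5-library fit, which keeps the library labelled KO 3. With all 6 libraries no gene had an adjusted p under 0.342 in edgeR, and where 1 value is printed with no fit named it is from the 5-library fit. A fit without both libraries numbered 3 gave each of the 13 members called below the same direction and a call. Every direction is a direction between labels. That fit was chosen with the Atg5 level and earlier results of these data known.

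The listed ILC2 markers were present: all 14, Gata3, Il1rl1 and Il5 among them, exceeded 1 CPM in at least 1 library. Their summed level was 11677 to 15709 CPM in the libraries labelled KO and 15755 to 18513 CPM in those labelled WT. In the 5-library fit 2 of the 14 ILC2 markers rose and 7 fell, beside 17.7% of all genes called higher and 16.1% called lower. Together 64.3% of these markers were called, beside 33.9% of all genes, so their levels differed between the labels. Markers of other cells were measured too. The 9 measured T cell markers of 10 listed summed to 65.2 to 77.0 CPM under the KO label and 62.2 to 87.8 CPM under the WT label. For the 7 measured macrophage and dendritic cell markers of 10 listed, sums were 44.9 to 57.9 CPM under the KO label and 48.9 to 59.1 CPM under the WT label. Markers of 2 other cell lists separated WT 1 and WT 2 from the other 4 libraries. The 4 measured stromal and endothelial markers of 8 listed summed to 92.0 to 131 CPM in the libraries labelled KO and to 8.67 to 93.6 CPM in those labelled WT. Nearly all of that was Pecam1, while Col1a1, Col1a2 and Vwf stayed below 1 CPM in every library. The 5 measured epithelial markers of 8 listed summed to 9.35 to 29.6 CPM under the KO label and 15.3 to 59.1 CPM under the WT label, with Cdh1, Krt8 and Krt18 below 1 CPM throughout. Epcam had 12.6, 13.7 and 8.90 CPM under the labels KO 1 to KO 3, against 57.4, 52.3 and 14.3 CPM under the labels WT 1 to WT 3. The part of these markers in the results below was not tested. In RNA from bulk cells, fewer cells of a type and less RNA per cell cannot be told apart.

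Across the 33 genes the pathway did not move as a block. With all 6 libraries, 0 of 33 members passed an adjusted p under 0.05 in edgeR's quasi-likelihood test, the same as the 0% of all genes called there. At an unadjusted p under 0.05, 4 of 33 members stood out (12.1%), beside 14.4% of all genes. DESeq2 (2.55% of all genes called), limma-voom and limma-trend called 0 members as well. Limma-voom with sample quality weights did call members, in both directions and among many other genes, with the counts given in the last section. In the 5-library fit 6 members rose and 7 fell. These 13 are 39.4% of the members, beside 33.9% of all 14743 genes tested. Higher calls made up 18.2% of the members against 17.7% of all genes, and lower calls 21.2% against 16.1%. The members' shares were thus near the background in both directions. Without both libraries numbered 3, 8 members were higher and 9 lower, beside 22.7% of all genes in each direction and 45.4% in either. The median log2 difference over the members was -0.10 in the 5-library fit and -0.08 with all 6 libraries, beside 0.02 over all genes in each. The summed CPM of all 33 members was 2715, 2634 and 2540 under the labels KO 1 to KO 3, and 2878, 2991 and 2633 under the labels WT 1 to WT 3, so the groups overlapped, with WT 3 the lowest of its group.

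The members that passed in the 5-library fit split within every stage of the pathway that held more than 1 call, other than activation. Those that fell were Cpt1a, Slc27a1, Acsl4, Acad11, Acaa2, Ech1 and Acaa1a. Those that rose were Acad9, Echs1, Etfa, Eci1, Decr1 and Acot2. The library labelled WT 3, which that fit did not use, was nearer in log2 CPM to the mean of the 3 libraries labelled KO than to that of the libraries labelled WT 1 and WT 2 in 13 of these 13 genes, beside 95.5% of all 4991 genes called in the fit. Over all 33 members that was so in 27 (81.8%), beside 76.3% of all genes tested. In 4 members (12.1%, beside 18.5% of all genes) the 3 libraries labelled KO did not overlap the 3 labelled WT. Acadvl, Eci1 and Acot2 were above (9.26% of all genes were) and Acsl5 was below (9.22% were).

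**Figure D1:**
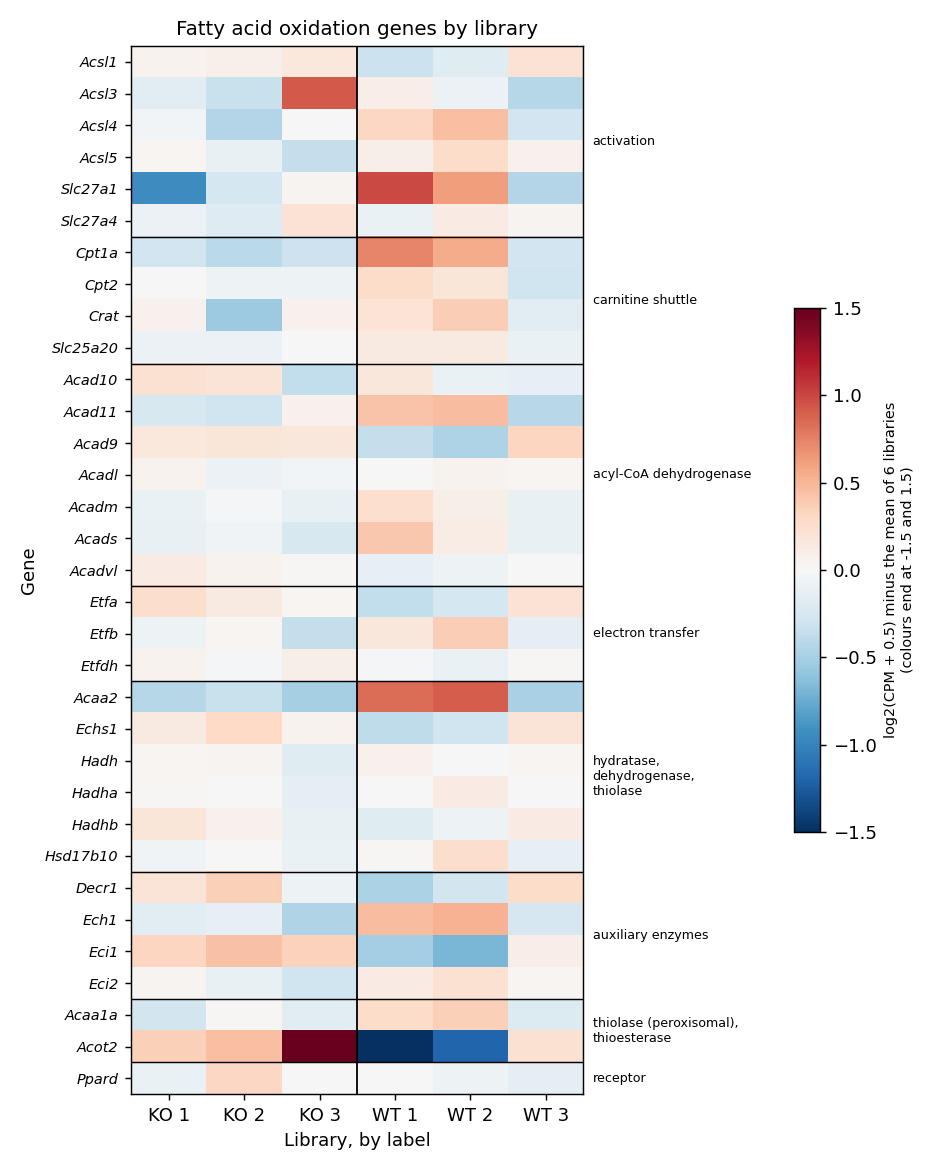
Each cell is the log2(CPM + 0.5) of a member (rows, grouped by role) in 1 library (columns, KO then WT), minus the mean of that gene over the 6 libraries, with colours ending at -1.5 and 1.5. The column of the library labelled WT 3 resembles the 3 columns labelled KO for Cpt1a, Acaa2, Ech1 and Etfa. For Acot2 it resembles those labelled KO 1 and KO 2 but not KO 3. Acadl, Hadh and Etfdh are pale in every column.

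**Figure D2:**
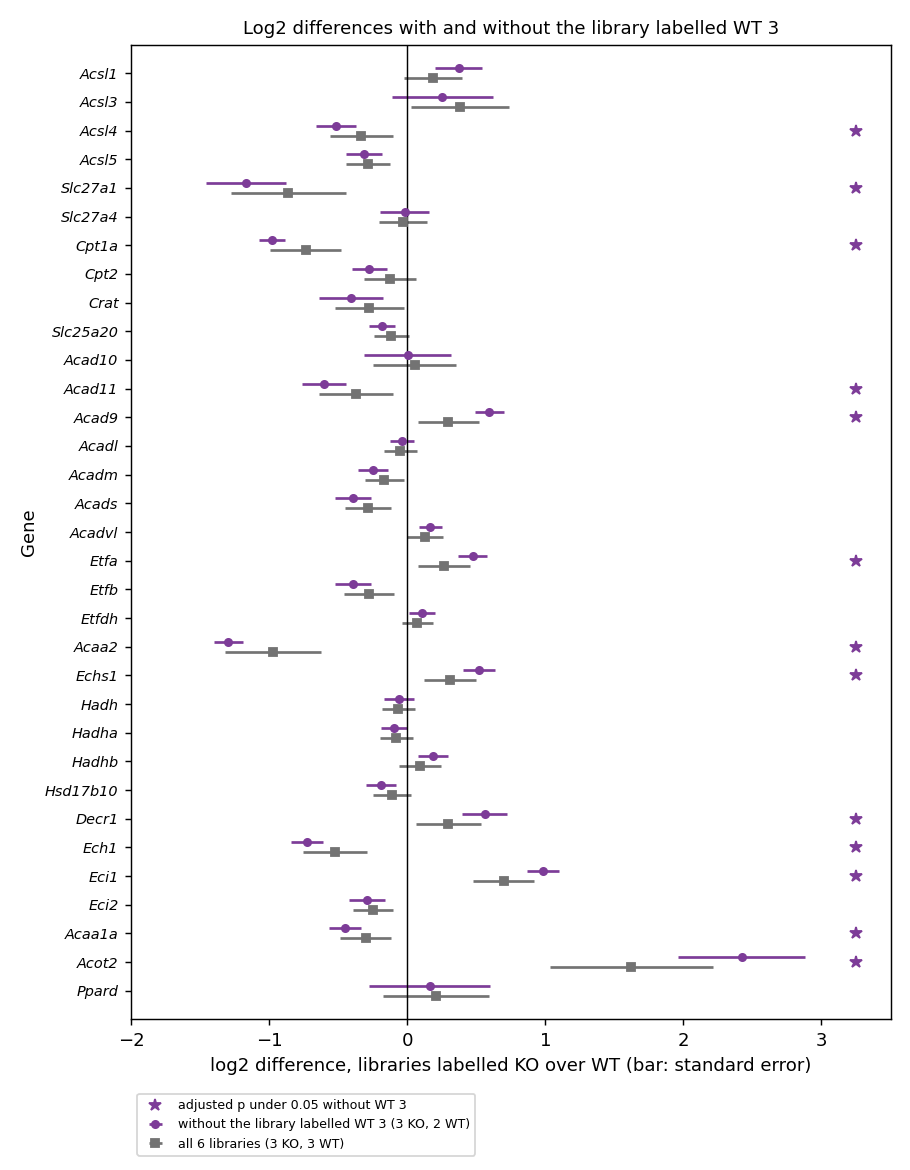
Points are log2 differences of the libraries labelled KO over those labelled WT with their standard errors, for the 5-library fit (circles) and for all 6 libraries (squares), and stars mark an adjusted p under 0.05 in the 5-library fit. The 13 stars divide into 6 positive and 7 negative differences, with Acot2 the farthest to the right and Acaa2 the farthest to the left.

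Promoter windows of 4 members called in the 5-library fit are shown, to set windows with and without motifs of regulators of this pathway side by side. Of the 33 genes, 29 matched by symbol in RefSeq's promoter sequences for GRCm38.p6, the assembly behind mm10, with 32 start sites in all, each window running from 250 bases before the start to 50 after it. The windows below are 5′ to 3′ on the gene's strand, in lower case, with capitals for a match to 1 of the motifs searched on both strands. Cpt1a and Echs1 were chosen because they hold matches, and Acot2 and Eci1 for their large differences; these hold none. Cpt1a is at chr19:3323051-3323350 on the forward strand, Echs1 at chr7:140116372-140116671 on the reverse strand, Acot2 at chr12:83987611-83987910 and Eci1 at chr17:24426433-24426732, both on the forward strand.
Cpt1a: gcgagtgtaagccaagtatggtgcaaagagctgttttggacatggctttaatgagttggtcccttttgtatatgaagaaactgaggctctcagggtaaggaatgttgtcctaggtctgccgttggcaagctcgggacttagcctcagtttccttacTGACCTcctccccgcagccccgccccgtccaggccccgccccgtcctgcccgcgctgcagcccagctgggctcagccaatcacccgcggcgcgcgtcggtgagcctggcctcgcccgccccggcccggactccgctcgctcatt
Echs1: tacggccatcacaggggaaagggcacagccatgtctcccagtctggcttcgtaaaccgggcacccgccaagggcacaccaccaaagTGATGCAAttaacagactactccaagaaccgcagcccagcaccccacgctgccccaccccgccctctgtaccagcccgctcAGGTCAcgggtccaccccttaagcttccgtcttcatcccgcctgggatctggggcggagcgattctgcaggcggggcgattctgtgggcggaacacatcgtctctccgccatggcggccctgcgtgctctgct
Acot2: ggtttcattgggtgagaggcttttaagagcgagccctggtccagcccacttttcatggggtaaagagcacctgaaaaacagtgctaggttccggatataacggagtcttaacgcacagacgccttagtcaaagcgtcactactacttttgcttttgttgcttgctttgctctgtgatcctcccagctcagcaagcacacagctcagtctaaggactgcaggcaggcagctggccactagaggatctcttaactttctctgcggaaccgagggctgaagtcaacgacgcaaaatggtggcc
Eci1: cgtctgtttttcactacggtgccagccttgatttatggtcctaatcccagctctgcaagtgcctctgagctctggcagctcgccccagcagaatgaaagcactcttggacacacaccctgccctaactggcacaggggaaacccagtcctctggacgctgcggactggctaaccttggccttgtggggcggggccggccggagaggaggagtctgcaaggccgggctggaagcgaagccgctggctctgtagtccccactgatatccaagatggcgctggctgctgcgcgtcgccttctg

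The half-site AGGTCA, bound by nuclear receptors, stood in 4 of the 32 windows (12.5%: Cpt1a, Echs1, Acadm and Acadvl), beside 16.3% of all 32851 promoters of the same length. In Cpt1a it was read on the opposite strand. The direct repeat of that half-site with 1 base between, a form of the element PPARs bind with RXR, stood in 0 of 32, beside 0.0396% of all promoters. Only the exact string was searched, and at so low a share 0 matches cannot set the members apart from other genes. The element TGATGNAA, which ATF4 binds with C/EBP factors, stood only in Echs1 among the 32 (3.12%, beside 3.97%), and the E-box CACGTG only in 1 of the 3 Slc27a1 windows (3.12%, beside 7.15%). The NRF1 motif stood in 3 windows, those of Acad10, Etfb and Etfdh (9.38%, beside 4.6%), and the TATA box TATAAA in 0 (beside 13.6%). The GC content of the members' windows had a median of 60.5% and reached 77.0%, against a median of 52.7% over all promoters. Of the 4 genes with the half-site, Cpt1a fell and Echs1 rose in the 5-library fit, and Acadm and Acadvl did not pass. A match is a description of letters, and an absence concerns only these windows.

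Among the 6 activation genes on the list, Acsl5 and Acsl4 had the highest levels per kb. Per kb of the longest coding transcript, Acsl5 averaged 55.4 CPM in the libraries labelled KO and 67.4 CPM in those labelled WT. Acsl4, which prefers arachidonic acid, averaged 22.9 CPM per kb under the KO label and 28.9 under the WT label. Acsl1, the main isoform of liver and fat, averaged only 4.11 CPM per kb under the KO label and 3.61 under the WT label. Acsl4 was at 130, 98.4 and 135 CPM under the labels KO 1 to KO 3, against 166, 182 and 109 CPM under the labels WT 1 to WT 3. The library labelled WT 3 lay inside the range of those labelled KO. Acsl4 fell by 0.52 on the log2 scale in the 5-library fit (SE 0.14, adjusted p = 0.0304) and stood at -0.33 with all 6 libraries (SE 0.23, adjusted p = 0.441). Acsl5 was at 264, 239 and 202 CPM under the KO label and 275, 312 and 271 CPM under the WT label. Its groups did not overlap, yet it missed the threshold with 5 libraries (adjusted p = 0.104) and with 6 (0.378).

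Acsl3, an isoform of the endoplasmic reticulum and lipid droplets, was set by 1 library. It was at 30.1, 26.9 and 64.4 CPM under the labels KO 1 to KO 3, against 36.4, 31.8 and 25.0 CPM under the labels WT 1 to WT 3. Its log2 difference was 0.38 with all 6 libraries (SE 0.35, adjusted p = 0.557) and -0.12 without the library labelled KO 3. Slc27a1, which encodes the transport protein and acyl-CoA synthetase FATP1, was at 9.00, 14.7 and 18.2 CPM under the labels KO 1 to KO 3. It was at 35.7, 27.6 and 13.0 CPM under the labels WT 1 to WT 3, and the last of these lay among the libraries labelled KO. Slc27a1 fell by 1.17 in the 5-library fit (SE 0.29, adjusted p = 0.0194) and stood at -0.86 with all 6 libraries (SE 0.41, adjusted p = 0.356). Acsl1 (15.5 to 16.8 CPM under the KO label, 11.8 to 17.4 CPM under the WT label) and Slc27a4, which encodes FATP4 (21.0 to 28.0 CPM under the KO label, 22.4 to 26.1 CPM under the WT label), passed in neither fit.

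All 4 genes of the carnitine shuttle had negative log2 differences in both fits, and 1 of them passed in the 5-library fit. Cpt1a, the step that commits long chains to oxidation and that malonyl-CoA inhibits, lies on chromosome 19 from 3323301 to 3385732 (forward strand, mm10). It was at 79.5, 73.4 and 78.0 CPM under the labels KO 1 to KO 3, against 162, 143 and 79.3 CPM under the labels WT 1 to WT 3. The libraries labelled WT 1 and WT 2 had about the same excess over the other 4, among which the library labelled WT 3 could not be picked out. Means were 77.0 ± 3.18 CPM under the KO label and 128 ± 43.2 CPM under the WT label (SD, n = 3 each). Cpt1a fell by 0.98 on the log2 scale in the 5-library fit (SE 0.10, adjusted p = 0.000438) and stood at -0.73 with all 6 libraries (SE 0.26, adjusted p = 0.342).

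The rest of the shuttle varied less. Cpt2, which returns the acyl group to coenzyme A inside the mitochondrion, had 27.7, 26.2 and 26.3 CPM in the libraries labelled KO, against 33.5, 31.5 and 22.5 CPM in those labelled WT. Slc25a20, the carnitine-acylcarnitine carrier, was at 64.9, 64.5 and 68.9 CPM under the KO label and 75.2, 75.4 and 64.2 CPM under the WT label. Crat, which makes short-chain acylcarnitines and so buffers acetyl-CoA, was at 17.5, 11.2 and 17.4 CPM under the KO label, against 19.2, 21.7 and 14.9 CPM under the WT label. In each of the 3 the library labelled WT 3 was the lowest of those labelled WT. Their log2 differences in the 5-library fit were -0.27 (SE 0.13) for Cpt2, -0.18 (SE 0.09) for Slc25a20 and -0.41 (SE 0.23) for Crat, and none passed (adjusted p = 0.137, 0.187 and 0.225).

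**Figure D3:**
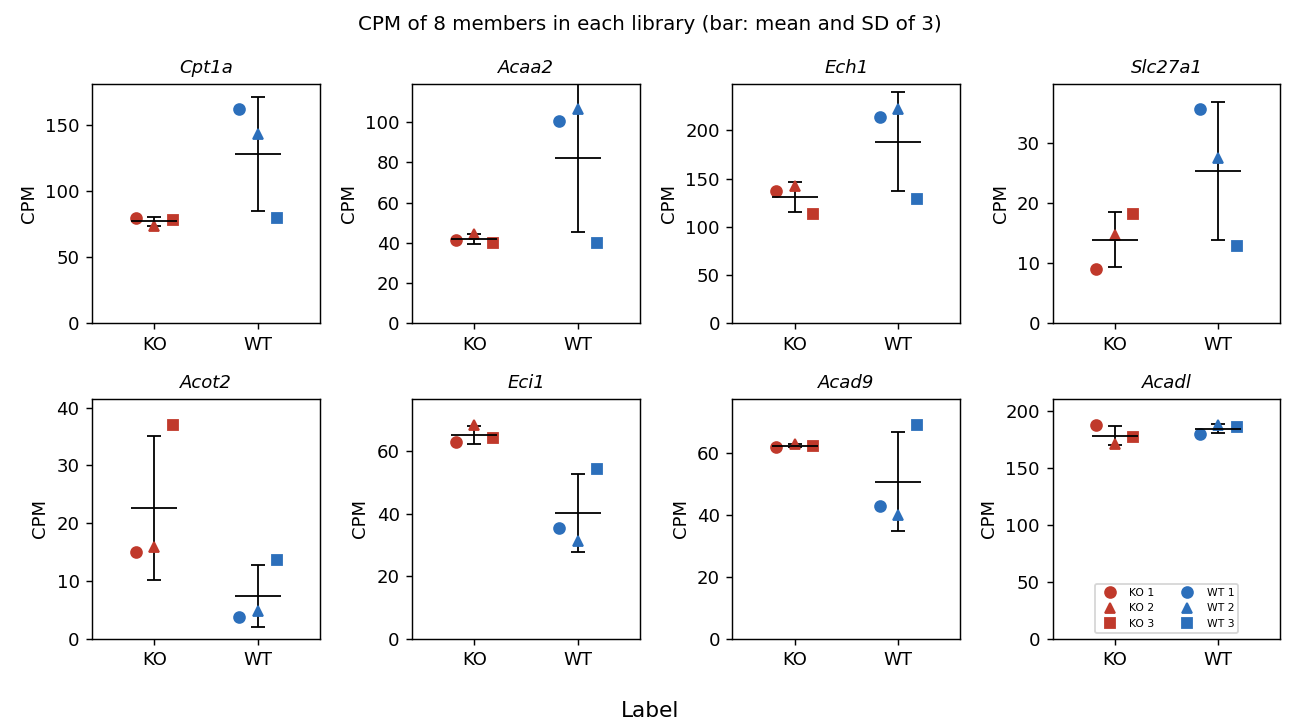
CPM of 8 members in each library, on axes that start at 0, with KO left of WT, the library number shown by the marker's shape, and the mean and SD of 3 libraries as bars. For Cpt1a, Acaa2, Ech1 and Slc27a1 the square of the library labelled WT 3 sits with the libraries labelled KO and far below those labelled WT 1 and WT 2, for Acot2, Eci1 and Acad9 it sits above those, and for Acadl all 6 libraries lie between 171 and 188 CPM.

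The acyl-CoA dehydrogenases, which start each round of the cycle and divide the work by chain length, were carried by the long-chain enzymes. Acadvl (very long chains) averaged 118 CPM per kb under the KO label and 108 under the WT label, and Acadl (long chains) 93.0 under the KO label and 96.3 under the WT label. Acadm (medium chains) averaged 24.2 CPM per kb under the KO label and 27.2 under the WT label, and Acads (short chains) 26.2 under the KO label and 31.9 under the WT label. Acadl was the steadiest of these: 187, 171 and 177 CPM in the libraries labelled KO and 180, 188 and 186 CPM in those labelled WT, a log2 difference of -0.04 in the 5-library fit (SE 0.09, adjusted p = 0.775). Acadvl had 267, 254 and 248 CPM in the libraries labelled KO, against 225, 233 and 245 CPM in those labelled WT. These groups did not overlap, but the gap between the nearest libraries was small and Acadvl missed the threshold in both fits (adjusted p = 0.172 with 5 libraries, 0.584 with 6). Acadvl shares 256 bases of transcript with its neighbour Dvl2, at 20.7 to 33.8 CPM.

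The shorter-chain enzymes did not pass in that fit either. Acadm was at 48.7, 51.8 and 48.4 CPM under the KO label and 62.6, 55.9 and 48.4 CPM under the WT label (adjusted p = 0.123 in the 5-library fit). Acads was at 49.7, 51.8 and 45.5 CPM under the KO label, against 71.2, 57.9 and 49.7 CPM under the WT label and narrowly missed the threshold there (-0.39, SE 0.13, adjusted p = 0.0552). In both genes the library labelled WT 3 was at the level of those labelled KO.

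The less studied dehydrogenases went both ways. Acad9, which is also needed to assemble respiratory complex I, was at 61.8, 62.8 and 62.2 CPM under the labels KO 1 to KO 3, against 42.9, 40.0 and 69.1 CPM under the labels WT 1 to WT 3. The library labelled WT 3 was the highest of all 6. Acad9 rose by 0.59 in the 5-library fit (SE 0.10, adjusted p = 0.00463) and stood at 0.30 with all 6 libraries (SE 0.22, adjusted p = 0.477). Its reads cannot be fully told from those of Gm43079, which overlaps it on the same strand and was at 1.01 to 4.64 CPM. Acad11, an enzyme of long acyl chains, was at 19.4, 18.6 and 24.2 CPM under the KO label and 31.2, 32.1 and 17.2 CPM under the WT label, and fell by 0.60 in the 5-library fit (SE 0.16, adjusted p = 0.0254), against -0.37 with all 6 libraries (SE 0.27, adjusted p = 0.461). Ackr4, which overlaps it, was at most 0.951 CPM. Acad10 stayed at 3.35 to 5.33 CPM in every library and shares sequence of 95.3% identity with Acad12, so its value is uncertain.

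Electron transfer flavoprotein, the acceptor for these dehydrogenases, is made of an alpha and a beta subunit in equal number, and their transcripts had log2 differences of opposite sign in both fits. Etfa (alpha) was at 184, 169 and 156 CPM under the labels KO 1 to KO 3, against 118, 127 and 178 CPM under the labels WT 1 to WT 3. Etfb (beta) was at 136, 146 and 112 CPM under the KO label, against 162, 185 and 131 CPM under the WT label. For both subunits the library labelled WT 3 lay within the range of those labelled KO. Etfa rose by 0.47 in the 5-library fit (SE 0.10, adjusted p = 0.012), whereas Etfb did not pass (-0.39, SE 0.13, adjusted p = 0.0569). With all 6 libraries they stood at 0.27 for Etfa (SE 0.19) and -0.28 for Etfb (SE 0.18), and neither passed. The difference between the subunits was not tested. Etfdh, the oxidoreductase that passes the electrons on to ubiquinone, was at 84.6 to 91.1 CPM under the KO label and 80.5 to 86.9 CPM under the WT label and passed in neither fit. A pseudogene of Etfa and a transcript overlapping Etfb share sequence with these genes.

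Of the 6 genes for the hydration, second dehydrogenation and cleavage of the mitochondrial cycle, 1 rose and 1 fell in the 5-library fit. Acaa2, the mitochondrial 3-ketoacyl-CoA thiolase, had the most negative difference of all members. It was at 41.7, 44.6 and 39.7 CPM under the labels KO 1 to KO 3, against 101, 106 and 39.9 CPM under the labels WT 1 to WT 3. The library labelled WT 3 lay inside the narrow range of those labelled KO. Means were 42.0 ± 2.43 CPM under the KO label and 82.3 ± 36.8 CPM under the WT label (SD, n = 3 each). Acaa2 fell by 1.30 in the 5-library fit (SE 0.10, adjusted p = 0.000202) and stood at -0.97 with all 6 libraries (SE 0.35, adjusted p = 0.342).

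Echs1, the short-chain enoyl-CoA hydratase, had the opposite sign. It was at 67.9, 76.2 and 64.0 CPM under the labels KO 1 to KO 3, against 47.2, 50.1 and 70.7 CPM under the labels WT 1 to WT 3. It rose by 0.52 in the 5-library fit (SE 0.12, adjusted p = 0.0141) and stood at 0.31 with all 6 libraries (SE 0.19, adjusted p = 0.398). Hadha and Hadhb, whose products form the trifunctional protein of the inner membrane, lie head to head on opposite strands of chromosome 5. Hadha was at 130, 128 and 117 CPM under the KO label and 129, 140 and 128 CPM under the WT label. Hadhb was at 217, 200 and 176 CPM under the KO label, against 168, 181 and 207 CPM under the WT label. Neither passed in the 5-library fit (adjusted p = 0.488 for Hadha and 0.248 for Hadhb), and the groups overlapped in both. Hadhb has a pseudogene, Gm13910, of 99.8% identity over 1428 bases, counted at 7.54 to 9.81 CPM, so a share of its reads is uncertain. Hadh, the short-chain hydroxyacyl-CoA dehydrogenase, stayed at 74.5 to 88.0 CPM and Hsd17b10, which also serves isoleucine breakdown and mitochondrial RNase P, at 77.2 to 101 CPM in all 6 libraries, and neither passed.

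Auxiliary enzymes, which handle double bonds that the core cycle cannot, held 3 calls among 4 genes. Eci1, the mitochondrial enoyl-CoA isomerase, lies on chromosome 17 from 24426683 to 24439316 (forward strand, mm10). It was at 63.0, 68.4 and 64.1 CPM under the labels KO 1 to KO 3, against 35.2, 31.1 and 54.3 CPM under the labels WT 1 to WT 3. Here the library labelled WT 3 lay between the others, nearer to those labelled KO, and the groups did not overlap. Eci1 rose by 0.98 in the 5-library fit (SE 0.12, adjusted p = 0.000919) and stood at 0.70 with all 6 libraries (SE 0.22, adjusted p = 0.342). Decr1, the 2,4-dienoyl-CoA reductase, was at 41.9, 46.9 and 34.7 CPM under the KO label and 26.2, 29.98 and 44.3 CPM under the WT label, and rose by 0.56 in the 5-library fit (SE 0.16, adjusted p = 0.0364), against 0.30 with all 6 libraries (SE 0.23, adjusted p = 0.494).

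Ech1, a dienoyl-CoA isomerase found in mitochondria and peroxisomes and among the most abundant members per kb, fell. It was at 138, 142 and 113 CPM under the labels KO 1 to KO 3, against 214, 222 and 129 CPM under the labels WT 1 to WT 3. Again the library labelled WT 3 lay inside the range of those labelled KO. Ech1 fell by 0.73 in the 5-library fit (SE 0.12, adjusted p = 0.00322) and stood at -0.52 with all 6 libraries (SE 0.23, adjusted p = 0.348). Eci2, a second isomerase shared by both organelles, was at 54.8, 49.1 and 43.1 CPM under the KO label, against 58.1, 62.5 and 54.1 CPM under the WT label and missed the threshold in both (adjusted p = 0.131 with 5 libraries, 0.385 with 6).

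Acaa1a, the peroxisomal thiolase, was at 69.3, 85.2 and 75.2 CPM under the labels KO 1 to KO 3, against 102, 108 and 73.0 CPM under the labels WT 1 to WT 3. It fell by 0.45 in the 5-library fit (SE 0.11, adjusted p = 0.0214) and stood at -0.30 with all 6 libraries (SE 0.18, adjusted p = 0.398). Acaa1b, of 96.6% identity with it, was at most 0.199 CPM. Acot2, the mitochondrial thioesterase that frees fatty acids from coenzyme A, had the largest difference of any member. It lies on chromosome 12 from 83987861 to 83993873 (forward strand, mm10). It was at 14.9, 15.9 and 37.0 CPM under the labels KO 1 to KO 3, against 3.70, 4.78 and 13.6 CPM under the labels WT 1 to WT 3. The library labelled WT 3 lay just under the lowest of those labelled KO, and the library labelled KO 3 stood well above all others. Acot2 rose by 2.42 in the 5-library fit (SE 0.46, adjusted p = 0.00657) and by 1.87 in the fit that leaves out both libraries numbered 3 (SE 0.23, adjusted p = 0.000137). With all 6 libraries it stood at 1.62 (SE 0.59, adjusted p = 0.342). Its near copy Acot1, of 95.1% identity over 1274 bases, was at 0 to 0.331 CPM, and how reads matching both were divided is unknown. Ppard, the PPAR isotype expressed in most tissues, was low in all libraries at 1.18, 1.73 and 1.31 CPM under the KO label and 1.31, 1.21 and 1.13 CPM under the WT label and passed in neither fit.

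**Figure D4:**
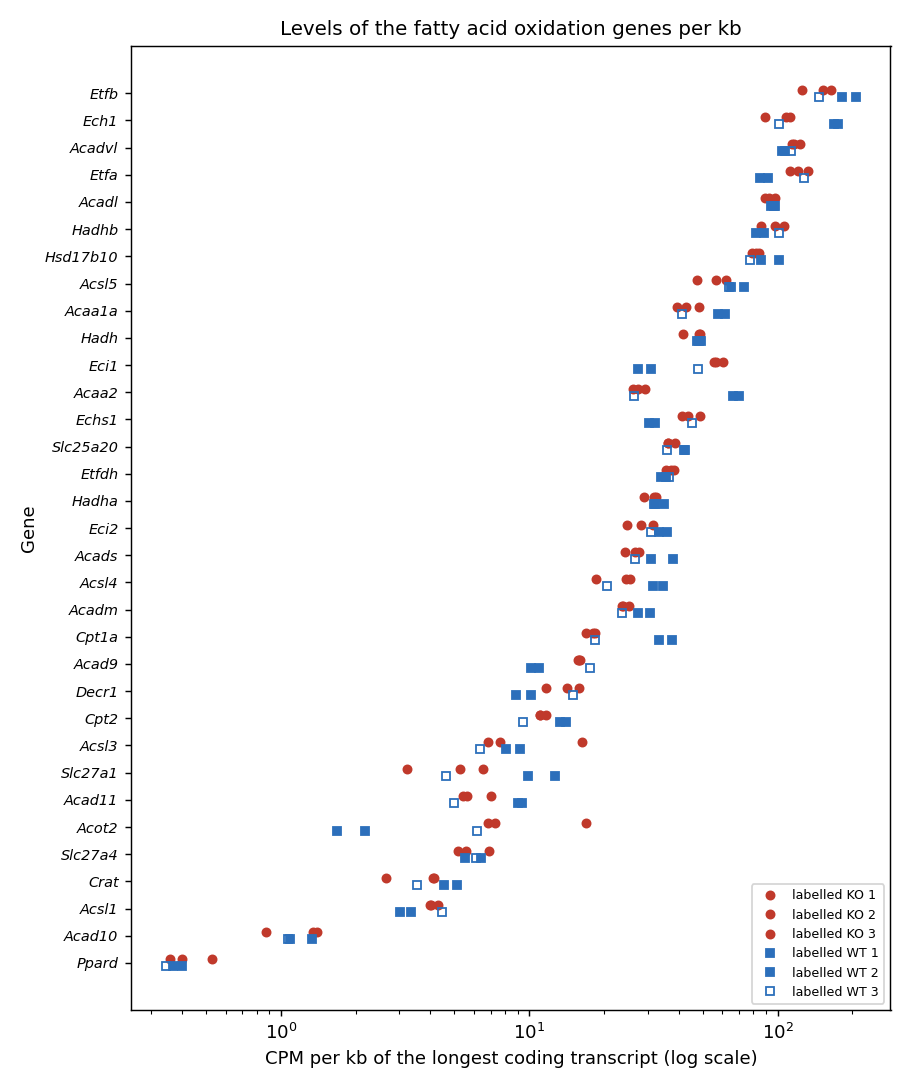
CPM per kb of the longest coding transcript on a log scale for the 33 members, ordered by their mean over 6 libraries, with circles for the libraries labelled KO, filled squares for WT 1 and WT 2 and an open square for WT 3. The order runs from Ppard, at 0.40 on average, to Etfb, at 163, and the open square departs from the filled ones for Cpt1a, Acaa2, Ech1, Eci1 and Acot2.

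Levels per kb, averaged over the 6 libraries, were highest for Etfb (163 CPM per kb), Ech1 (126), Acadvl (113) and Etfa (112), followed by Acadl (94.7), Hadhb (93.5) and Hsd17b10 (85.1). The carnitine shuttle lay lower: Slc25a20 at 38.6, Cpt1a at 23.7, Cpt2 at 11.8 and Crat at 4.02. Summed by role, the shuttle was at 190, 175 and 191 CPM under the labels KO 1 to KO 3, against 290, 272 and 181 CPM under the labels WT 1 to WT 3. Most of that gap was Cpt1a, at 79.5, 73.4 and 78.0 CPM against 162, 143 and 79.3 CPM in the same order. The 7 dehydrogenases summed to 639, 614 and 608 CPM under the KO label, against 618, 611 and 619 CPM under the WT label, so that their total hardly differed while single members moved apart. The 3 electron transfer genes summed to 409, 399 and 360 CPM under the KO label and 365, 393 and 395 CPM under the WT label.

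Related genes outside the list put these values in context. Of 21 listed genes of peroxisomal import and oxidation, 17 were tested. In the 5-library fit 2 rose and 8 fell, beside 17.7% of all genes called higher and 16.1% called lower. None passed in edgeR with all 6 libraries. Crot, which makes carnitine esters of shortened chains in peroxisomes, had 35.8, 33.1 and 32.2 CPM in the libraries labelled KO, against 86.0, 65.7 and 36.1 CPM in those labelled WT, and fell by 1.16 (SE 0.14, adjusted p = 0.000997). This example was chosen after its values were seen. Ehhadh, the peroxisomal bifunctional enzyme, was at 1.97, 1.73 and 1.47 CPM under the KO label, against 8.49, 5.92 and 3.45 CPM under the WT label and fell by 2.06 (SE 0.31, adjusted p = 0.00255). Its groups did not overlap, and it also passed in DESeq2 on all 6 libraries (adjusted p = 0.00813), where 2.44% of all genes tested were called lower. Hsd17b4, the second bifunctional enzyme, fell by 0.44 (SE 0.10, adjusted p = 0.0167), and Cat, catalase, rose by 0.68 (SE 0.19, adjusted p = 0.0307). The median log2 difference of this list was -0.49 in the 5-library fit, beside 0.02 over all genes.

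Of 14 listed well known PPAR target genes outside the members, 7 were tested. In the 5-library fit 6 of the 7 fell and 0 rose, beside 16.1% of all genes called lower and 17.7% called higher. Ehhadh stands in the peroxisomal list too, and Cd36 in that of uptake. Ucp2, a carrier of the inner mitochondrial membrane, was at 1037, 1065 and 1020 CPM under the labels KO 1 to KO 3, against 2398, 2303 and 1164 CPM under the labels WT 1 to WT 3, and fell by 1.17 (SE 0.07, adjusted p = 0.000101). Cd36, a fatty acid receptor at the cell surface, was near the detection floor, at 0.416, 0.0892 and 0 CPM under the KO label, against 4.06, 1.73 and 1.26 CPM under the WT label. Among 15 tested nuclear receptors and coregulators 3 rose and 3 fell. These are 40% of that list, near the 33.9% of all genes called in that fit. Pparg, the PPAR isotype of fat and of several immune cells, had 241, 216 and 235 CPM under the labels KO 1 to KO 3, against 151, 153 and 246 CPM under the labels WT 1 to WT 3. It rose by 0.60 (SE 0.09, adjusted p = 0.00232) and was named after its values were seen. Rxrb rose by 0.40 (SE 0.11, adjusted p = 0.0306) and the corepressor Ncor1, the highest of the list in CPM, fell by 0.36 (SE 0.09, adjusted p = 0.0258). Rxrg, at 0 to 0.45 CPM under the KO label and 0.497 to 3.67 CPM under the WT label, was counted among those that fell.

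In the opposing pathway of fatty acid synthesis 4 of 13 genes rose and 2 fell in the 5-library fit. Over all genes 17.7% rose and 16.1% fell there. In this list 4 of 12 genes rose and 4 fell without both libraries numbered 3, and the median log2 difference went from 0.67 to 0.01. Acaca, whose product makes the malonyl-CoA that inhibits CPT1, had 12.1, 12.8 and 21.8 CPM under the labels KO 1 to KO 3. It had 6.09 to 7.11 CPM in the libraries labelled WT, the library labelled WT 3 included. Acaca rose by 1.25 (SE 0.31, adjusted p = 0.0202), and by 0.93 without both libraries numbered 3 (SE 0.22, adjusted p = 0.00673). A link to the level of Cpt1a was not tested. Oxsm, the mitochondrial ketoacyl synthase, rose by 1.24 (SE 0.26, adjusted p = 0.0103), and Acly, the highest of the list in CPM, did not pass (0.64, SE 0.47, adjusted p = 0.355). Acly had 417, 375 and 1079 CPM under the labels KO 1 to KO 3, against 394, 409 and 401 CPM under the labels WT 1 to WT 3, and its difference was -0.01 without both libraries numbered 3. Of 18 other mitochondrial genes of oxidation and its side branches only 1 rose and 1 fell in that fit (Pcca and Acadsb, both chosen after their values were seen). Oxct1 (-0.52, SE 0.18, adjusted p = 0.0663), Cpt1c (-2.57, SE 1.06, adjusted p = 0.104) and Acat1 (0.37, SE 0.13, adjusted p = 0.0687) did not pass.

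Of 16 peroxisome assembly factors tested, 2 rose and 1 fell in the 5-library fit, where 17.7% of all genes rose and 16.1% fell. Pex7, the import receptor used by the peroxisomal thiolase, rose by 0.77 (SE 0.14, adjusted p = 0.00539), and Pex19, the highest in CPM, did not pass (0.13, SE 0.12). Of 9 other thioesterases tested, Acot11 fell by 0.94 (SE 0.15, adjusted p = 0.00322), while Acot7, at 359 to 414 CPM in every library, and Them4 (0.78, SE 0.26, adjusted p = 0.0533) did not pass. Of 10 other activation and uptake genes 1 rose and 2 fell. Acss1, the mitochondrial acetyl-CoA synthetase, had 1.18, 2.56 and 1.47 CPM in the libraries labelled KO, against 8.49, 11.0 and 0.597 CPM in those labelled WT, and fell by 2.47 (SE 0.38, adjusted p = 0.0026). Acsbg1, the highest of that list at 215 to 419 CPM, did not pass (0.48, SE 0.23, adjusted p = 0.15). Its highest value was that of the library labelled KO 3, and its difference was 0.20 without both libraries numbered 3.

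**Figure D5:**
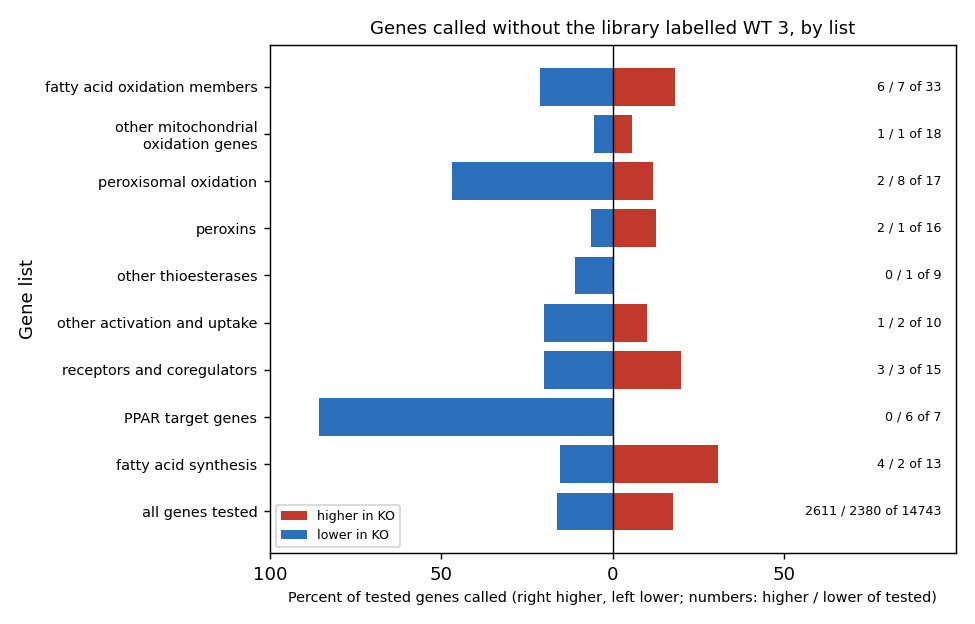
Bars give the percent of tested genes in each list that were higher (right) or lower (left) in the libraries labelled KO in the 5-library fit, with the counts beside them and all genes tested as the last bar. The members, at 6 higher and 7 lower of 33, lie close to the bar for all genes, while 8 of 17 peroxisomal oxidation genes and 6 of 7 PPAR target genes were lower; lists share genes and were given no test of their own.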

How the data were processed

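Messenger RNA of sorted lung ILC2s was measured in 6 libraries, 3 labelled KO and 3 labelled WT, with groups and numbers from the sample titles. The deposited table holds estimated counts per gene, not normalized, of which 47.1% to 48.5% per library were whole numbers (within 1e-06). A second table by the authors gives a normalized signal: adding 1 to the estimated count and dividing by a library's own factor (31.2 to 36.0) returned it. Partek, STAR, CASAVA 1.8.2 and the build mm10 are listed, without roles, in the submitters' processing notes. The use of strand and the sharing out of reads with several matches are not stated there, so near copies and overlapping genes are uncertain. In all, 16 members overlap another GENCODE vM21 gene.

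Rounded counts went into edgeR 4.0.16 under R 4.3.3 (TMM, filterByExpr, robust quasi-likelihood test), p-values being Benjamini-Hochberg adjusted over all genes tested, with 0.05 as threshold. The standard error is the log2 difference over the square root of F. CPM use TMM-scaled library sizes, and log2 values in comparisons of libraries add 0.5. The fit code was tested on simulated data. Alternatives used DESeq2 1.42.0, limma 3.58.1 and other libraries, filters and scalings. Ends of genes in the deposited table were reduced by 1, and 29 of 33 members then matched GENCODE vM21. Members, lists and fits were chosen with earlier results of these data known. Beyond the members, Atg5 was named, and from each related list the 2 genes with the lowest p with all 6 libraries and the one with the highest mean CPM, apart from genes said to be chosen after their values were seen. Some genes of the related lists are not reported here by name. Nothing states that libraries came from separate mice, so each p-value reflects only the spread among these 6 libraries, possibly technical. Floors cover counting error only.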

Additional observations from a re-analysis of the deposited data

How the results depend on the processing

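With all 6 libraries, the counts of genes called, of members called and of related genes called were 0 under 3 other scalings, 2 other filters, limma-voom, limma-trend on the authors' normalized values, a non-robust dispersion and a threshold of 0.1. DESeq2 called 323 genes (15 higher, 308 lower), 0 members and 3 related genes (Acaca, Cd36 and Ehhadh). Limma-voom with sample quality weights called 6327 genes, 14 members (6 higher, 8 lower) and 46 related genes. Without both libraries numbered 3 there were 6505 genes (beside them 17 members, 8 higher and 9 lower, and 47 related genes), and the members' median moved to -0.164. All 13 members of the 5-library fit were among those 17, in a comparison that shares 4 of its 5 libraries. Leaving out 1 library gave 0 to 4991 genes, 0 to 13 members and 0 to 34 related genes, and only leaving out the library labelled WT 3 gave any. The members' median then ranged from -0.13 to -0.04. The replicate block called 0 genes and 0 members, with a median of -0.0791 over members. Deviations from the group means correlated at -0.04, 0.02 and -0.01 for numbers 1 to 3. These values cannot decide whether numbers paired the libraries. With 3 libraries per group, the deviations of those labelled WT mostly reflect the distance of WT 3 from WT 1 and WT 2. The direction of 4 members reversed in at least 1 setting, none of them called: Acad10 (-0.0565 without KO 1 and -0.0659 without KO 2, the range on leaving out 1 library being -0.0659 to 0.2455), Acsl3 (-0.0905 with quality weights, -0.251 without both numbered 3 and -0.1195 without KO 3, range -0.1195 to 0.574), Hadh (0.0116 without both numbered 3 and 0.0096 without KO 3, range -0.132 to 0.0096) and Slc27a4 (0.0167 without WT 2, 0.00954 without KO 1 and 0.0213 without KO 2, range -0.159 to 0.0213). The cause was not tested. Depth limits genes with a library at 0 counts, among them Cpt1c, Rxrg and Cd36.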
